A study of Mus musculus with 8 samples.

Results

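Chemokine ligands and receptors were followed in mouse cells exposed to auranofin, a gold compound used against rheumatoid arthritis. The members were all genes of the deposited tables whose symbol names a CC, CXC, CX3C or XC chemokine, one of their receptors or an atypical chemokine receptor, together with Pf4 and Ccrl2. They numbered 58 genes of the 19382 in either table, namely 20 CC ligands, 13 CXC ligands, 2 other ligands, 18 receptors and 5 atypical receptors. The table of hepatic stellate cells (HSCs), which make collagen in the injured liver, held 56 members among 18645 genes. The table of bone marrow-derived macrophages (BMDMs) held 52 members among 17408 genes, and 50 members were in both.

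All cells came from C57BL/6 mice, and each of the 4 groups had 2 libraries. The HSCs were isolated from liver by collagenase perfusion and a density gradient and activated by culture on plastic, and for 12 h they received vehicle ("untreated" by the labels) or auranofin at 0.03 µM. The BMDMs were grown from marrow of 8-week-old male mice with 30 ng/ml M-CSF for 7 days, and both BMDM groups received LPS at 100 ng/ml and ATP at 1 mM, so that all of them were stimulated. One BMDM group also received auranofin for 1 h, at 0.1 µM by the labels, whereas the legend of the study gives 0.3 µM. Nothing states that the libraries of a group came from separate animals or cultures. The p-values therefore measure only the spread between these libraries, which may be technical.

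Chemokines are small secreted proteins that guide leukocytes along a gradient. They act through G protein-coupled receptors that signal by Gi proteins, phosphoinositide 3-kinase and Rac to the actin cytoskeleton, while atypical receptors take chemokines up without signalling through G proteins. In the injured liver, ligands of Ccr2 recruit monocytes, ligands of Cxcr2 recruit neutrophils and ligands of Cxcr3 recruit T cells, and both macrophages and stellate cells are known sources of ligands.

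Values were FPKM, fragments per kilobase of transcript divided by the size of the library, which allows levels to be compared between genes of a table. The depth was estimated from the steps that 1 fragment makes in low values, and ran from 27500000 to 39400000 fragments per library. The tables give no counts, so no counting interval is attached to a value. The marker genes of the labelled cell types were present. In HSCs, Acta2, the smooth muscle actin of activated stellate cells, had 956 and 965 FPKM with vehicle, and Col1a1 had 1001 and 1075 FPKM. Macrophage transcripts were also abundant in the HSC cultures, where Lyz2 had 5519 and 5554 FPKM with vehicle, and the Kupffer cell gene Clec4f had 58.6 and 59.2 FPKM. A lower level in such bulk cultures cannot be told apart from fewer cells of a type. In BMDMs, Lyz2 had 3743 and 3625 FPKM with vehicle, and the 11 stellate and myofibroblast markers in the table summed to between 10.4 and 16.7 FPKM in all 4 libraries.

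Many of the members lie in clusters of the genome. All 58 were matched to RefSeq genes of GRCm38.p6, the assembly of mm10, and 35 of them formed 9 clusters with gaps of at most 0.5 Mb. Chromosome 11 held Ccl2, Ccl7, Ccl11, Ccl12, Ccl8 and Ccl1 between 82035577 and 82179812, and Ccl5, Ccl9, Ccl6, Ccl3 and Ccl4 between 83525778 and 83664683. Chromosome 5 held the neutrophil-attracting ligands Cxcl5, Cxcl3, Cxcl1 and Cxcl2 with Pf4 between 90759298 and 90905938, and the interferon-inducible ligands Cxcl9, Cxcl10 and Cxcl11 between 92321331 and 92363296. Promoters of 5 members are printed here, each as the 200 bases before the RefSeq start in GRCm38.p6 on the strand of the gene. Ccl12 and Cxcl10 are shown because they had the largest falls in HSCs. Cxcl1, Cxcl2 and Cxcl3 are shown because they were the neighbouring ligands that stood higher in 1 BMDM library with auranofin. Capitals mark matches to the kB consensus, the binding sequence of NF-kB, on either strand.
The Ccl12 window is chr11:82101645-82101844 on the plus strand and holds no match.
Ccl12: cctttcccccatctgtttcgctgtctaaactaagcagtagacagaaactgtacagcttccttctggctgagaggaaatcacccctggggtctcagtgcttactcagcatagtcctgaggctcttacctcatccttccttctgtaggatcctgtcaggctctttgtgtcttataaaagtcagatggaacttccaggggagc
The Cxcl10 window is chr5:92348890-92349089 on the minus strand.
Cxcl10: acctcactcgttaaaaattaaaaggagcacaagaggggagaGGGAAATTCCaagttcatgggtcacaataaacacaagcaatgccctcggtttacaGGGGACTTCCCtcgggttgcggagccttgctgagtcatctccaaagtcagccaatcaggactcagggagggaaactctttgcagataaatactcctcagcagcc
The Cxcl1 window is chr5:90891045-90891244 on the plus strand.
Cxcl1: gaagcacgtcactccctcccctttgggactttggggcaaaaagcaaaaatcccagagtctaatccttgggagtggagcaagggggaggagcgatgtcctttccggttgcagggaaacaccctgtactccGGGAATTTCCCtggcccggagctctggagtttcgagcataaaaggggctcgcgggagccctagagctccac
The Cxcl2 window is chr5:90903699-90903898 on the plus strand.
Cxcl2: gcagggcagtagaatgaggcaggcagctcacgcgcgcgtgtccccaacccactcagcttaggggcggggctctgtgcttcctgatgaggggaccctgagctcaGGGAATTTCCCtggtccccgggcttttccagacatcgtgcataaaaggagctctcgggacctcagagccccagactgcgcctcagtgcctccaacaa
The Cxcl3 window is chr5:90785901-90786100 on the plus strand.
Cxcl3: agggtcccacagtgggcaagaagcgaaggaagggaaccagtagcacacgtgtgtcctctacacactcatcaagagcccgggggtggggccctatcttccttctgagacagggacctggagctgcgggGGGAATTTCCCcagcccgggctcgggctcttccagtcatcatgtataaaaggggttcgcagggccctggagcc

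The 3 neutrophil-attracting ligands shared the run GGGAATTTCCC, and its first base lay 71 bases before the start in Cxcl1, 97 in Cxcl2 and 73 in Cxcl3. Cxcl10 had a match starting 159 bases before its start and overlapping matches from 104 to 94 bases before it. Over windows from 250 bases before to 50 after the start, the kB consensus was found in 11 of the 44 member promoters listed (25%) and in 8.19% of all 27025 promoters. The AP-1 site TGANTCA was found in 13.6% of member promoters and 7.92% of all. The core of the antioxidant response element, TGACNNNGC, was found in 11.4% and 12.4%, and the interferon-stimulated response element in 6.82% and 3.49%, each on both strands. In Cxcl10 the AP-1 match overlapped the match to the antioxidant response element core. A match describes these letters only, and the absence of a match says only that these letters are not in the window.

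Without auranofin the members stood at very different levels in the 2 cell types. Of the 50 members in both tables, 33 had a higher mean FPKM in LPS/ATP-treated BMDMs than in HSCs and 17 had a higher mean in HSCs. A mean of at least 1 FPKM with vehicle was reached by 21 members in both, by 8 in BMDMs alone, by 4 in HSCs alone and by 17 in neither. The tables were normalized separately and the stimuli differ, so these levels are a description without a test. Macrophage transcripts were abundant in the HSC cultures, with Lyz2 at 5519 and 5554 FPKM with vehicle. An HSC level here is therefore that of the bulk culture, and the share from stellate cells is not known.

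**Figure D1:**
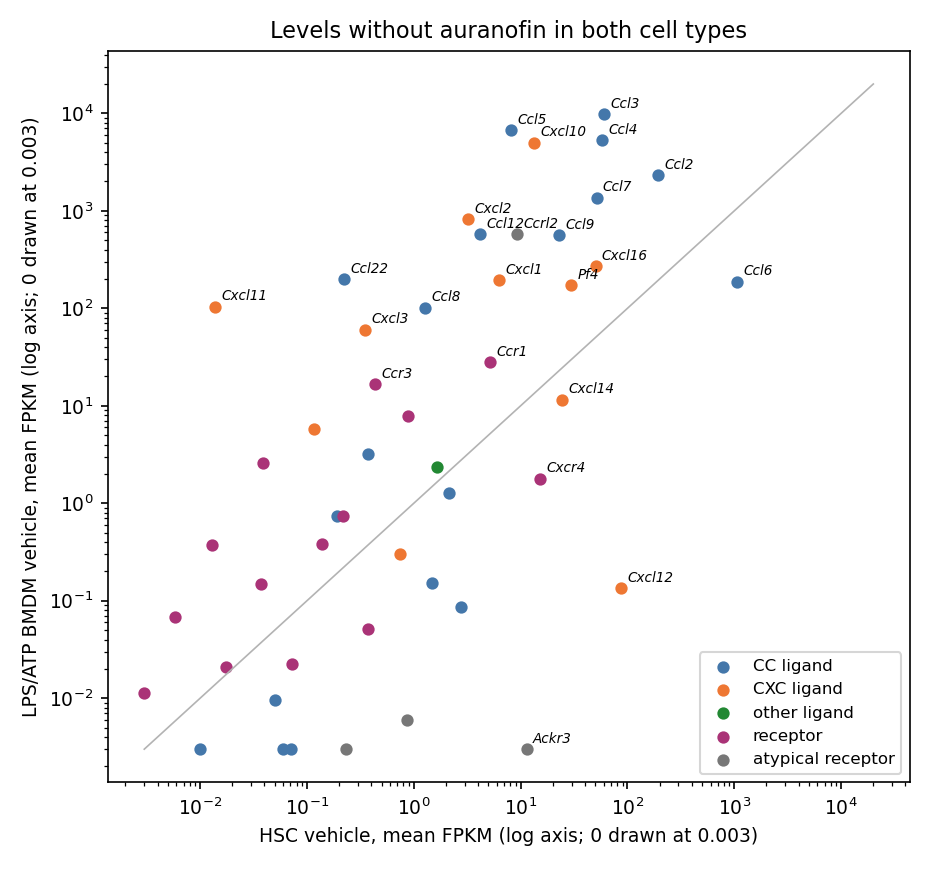
Mean FPKM with vehicle of the members in both tables that are described here, in HSCs (horizontal axis) and in LPS/ATP-treated BMDMs (vertical axis), both on log axes, with 0 drawn at 0.003 and colours for the class of gene. Most ligands lie above the line of equality, while Ccl6, Cxcl12, Cxcr4 and Ackr3 lie below it.

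The inflammatory ligands Ccl3, Ccl5 and Cxcl10 were far higher in BMDMs. Ccl3 had a vehicle mean of 60.9 FPKM in HSCs and 9791 FPKM in BMDMs. For Ccl5 the means were 8.15 and 6744 FPKM. Cxcl10, a ligand of Cxcr3, had 13.3 and 5002 FPKM. In the other direction, Ccl6, a ligand of Ccr1, had 1054 FPKM in HSCs and 188 FPKM in BMDMs. Cxcl12, which holds haematopoietic cells in their niches, had 87.1 and 0.134 FPKM. Both receptors of Cxcl12 followed the same order, with 15.3 and 1.78 FPKM for Cxcr4, and 11.4 FPKM in HSCs for the scavenger Ackr3, which was listed at 0 in both BMDM vehicle libraries. Within HSCs the order of the highest ligands with vehicle was Ccl6, Ccl2, Cxcl12, Ccl3 and Ccl4. The ranges of Ccl3 (54.4 to 67.4 FPKM) and Ccl4 (53.4 to 62.6 FPKM) overlapped, while the ranges of the first 3 did not overlap their neighbours. Within BMDMs the order was Ccl3, Ccl5, Ccl4, Cxcl10 and Ccl2, and no range overlapped its neighbour.

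In HSCs, 25 of the 56 members averaged 1 FPKM or more across the 4 libraries and were tested, and 31 were below it. The nearest members on either side of this minimum had means of 0.916 and 1.3 FPKM. No member was listed at 0 in all 4 libraries, 13 were at 0 in at least 1, and 1 member below the minimum, Cxcr3, reached it in 1 library (1.08 FPKM in vehicle 2).

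In HSCs 4 chemokine ligands fell with auranofin, and no receptor passed the test. Ccl12, Ccl2, Cxcl10 and Cxcl16 fell in limma, with a Benjamini-Hochberg adjusted p under 0.05, and no member rose. Over all 12149 genes tested, 1.09% fell and 1.24% rose by the same rule. By a fold change of at least 1.5 with an unadjusted p under 0.05, Ccl12 and Cxcl10 were lower and no member was higher, beside 0.148% and 0.428% of all genes. With a pseudocount of 0.1 in place of 1, Ccl8 was higher by this rule, at a log2 fold change of 0.61. At an unadjusted p under 0.05 alone, 12 members were lower and 1 was higher, beside 9.22% and 8.57% of all genes. Of the 25 members, 20 had a log2 fold change below 0 on the log2(FPKM + 1) scale, a share of 80% beside 47.8% of all genes. Their median log2 fold change was -0.15, and that of all genes was 0.00. On this scale the change of a gene at a low level is understated.

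**Figure D2:**
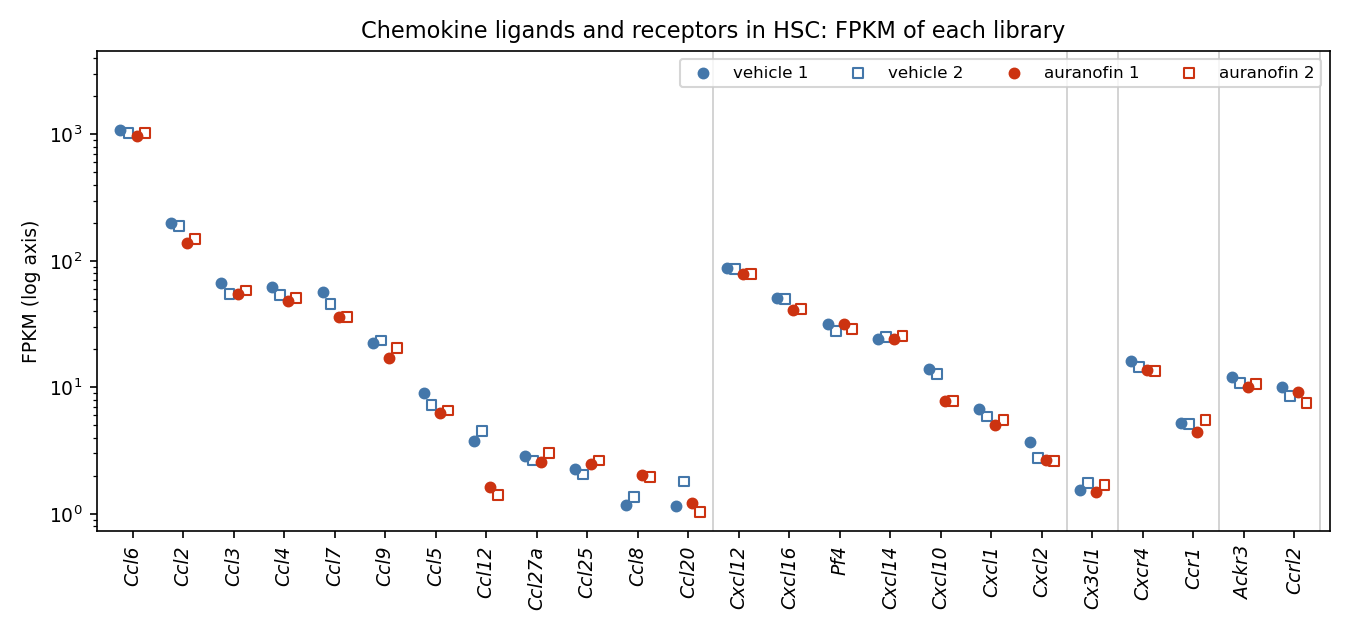
FPKM on a log axis of the tested members described here in each HSC library, with vehicle in blue and auranofin for 12 h in red, ordered by class of gene (CC, CXC and other ligands, receptors, atypical receptors) and by level. The auranofin symbols of Ccl2, Ccl12, Cxcl16 and Cxcl10 lie below both vehicle symbols.

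Ccl2 and Ccl12 are monocyte-attracting ligands of Ccr2. Ccl12 had 3.75 and 4.54 FPKM in vehicle 1 and 2 and 1.64 and 1.41 FPKM in auranofin 1 and 2. Both auranofin libraries lay under both vehicle libraries, and the mean FPKM was 63.2% lower. The log2 fold change was -1.02 (standard error 0.10, Benjamini-Hochberg adjusted p = 0.0103 from limma). The gene lies on chromosome 11 from 82101845 to 82103399, in GRCm38.p6. Its low level rested on an estimated 64 and 80 fragments with vehicle and 26 and 30 with auranofin. No stretch of 50 bases of its transcript occurred in another member.

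Ccl2 had 198 and 189 FPKM with vehicle, against 139 and 149 FPKM with auranofin. The groups did not overlap, and the log2 fold change was -0.42 (standard error 0.05, Benjamini-Hochberg adjusted p = 0.0149 from limma). The third Ccr2 ligand of the cluster, Ccl7, had 57.2 and 45.6 FPKM with vehicle and 35.8 FPKM in both auranofin libraries. These groups did not overlap either, but the vehicle libraries differed and the gene missed the threshold (log2 fold change -0.50, standard error 0.10, Benjamini-Hochberg adjusted p = 0.0710 from limma). Ccr2 itself was at or under 0.246 FPKM in every HSC library. Ccl8, in the same cluster, went the other way with 1.18 and 1.35 FPKM with vehicle, against 2.01 and 1.96 FPKM with auranofin. It had the highest log2 fold change of the tested members, 0.40, and also missed the threshold (standard error 0.08, Benjamini-Hochberg adjusted p = 0.0700 from limma).

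The inflammatory ligands Ccl3, Ccl4 and Ccl5, which attract macrophages and T cells, did not pass the test. Ccl3 had 67.4 and 54.4 FPKM with vehicle, against 54.6 and 58.2 FPKM with auranofin, so that the groups overlapped. Ccl4 had 62.6 and 53.4 FPKM against 48.0 and 51.0 FPKM, with both auranofin libraries lower. The log2 fold changes were -0.10 for Ccl3 and -0.22 for Ccl4, with standard errors of 0.10 and 0.08. Ccl6, the highest member in HSCs, had 1081 and 1027 FPKM with vehicle, against 971 and 1027 FPKM with auranofin. Its groups overlapped (log2 fold change -0.08, standard error 0.04). Ccl5 and Ccl9 were lower in both auranofin libraries, with log2 fold changes of -0.30 and -0.28. Ccl25, the ligand of Ccr9, had 2.27 and 2.04 FPKM with vehicle, against 2.50 and 2.64 FPKM with auranofin, a log2 fold change of 0.18 that did not pass. Ccl20 and Ccl27a, at a mean of at most 2.78 FPKM, overlapped between the groups, and Ccl27a shares 47.4% of its 50-base stretches with Ccl27b, so its value is uncertain.

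Of the 7 CXC ligands tested, 2 fell. Cxcl10 had 13.9 and 12.8 FPKM with vehicle, against 7.74 and 7.82 FPKM with auranofin. The auranofin libraries were close together and below both vehicle libraries, at a mean 41.6% lower. The log2 fold change was -0.70 (standard error 0.05, Benjamini-Hochberg adjusted p = 0.0057 from limma), over an estimated 477 and 461 fragments with vehicle and 252 and 337 with auranofin. Its receptor Cxcr3 was below the minimum, and the other Cxcr3 ligands, Cxcl9 and Cxcl11, were at or under 0.146 FPKM in every HSC library. Cxcl16, a membrane-bound ligand of Cxcr6, had 50.8 and 49.97 FPKM with vehicle, against 40.8 and 41.6 FPKM with auranofin. The groups did not overlap and the fall was small, with a log2 fold change of -0.28 (standard error 0.03, Benjamini-Hochberg adjusted p = 0.0215 from limma).

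Cxcl12 had 87.5 and 86.6 FPKM with vehicle, against 79.3 and 78.2 FPKM with auranofin. Both auranofin libraries were lower by a small amount that missed the threshold (log2 fold change -0.14, standard error 0.03, Benjamini-Hochberg adjusted p = 0.0964 from limma). Cxcl2, a ligand of Cxcr2 that recruits neutrophils, had 3.69 and 2.75 FPKM with vehicle, against 2.67 and 2.62 FPKM with auranofin. The groups did not overlap, but vehicle 2 lay nearer to the auranofin libraries than to vehicle 1, and the gene did not pass (log2 fold change -0.20, standard error 0.11, Benjamini-Hochberg adjusted p = 0.416 from limma). Cxcl1, of the same cluster and receptor, had 6.76 and 5.89 FPKM against 5.07 and 5.50 FPKM, with a log2 fold change of -0.22. Pf4, the platelet factor of that cluster, had 31.6 and 27.8 FPKM with vehicle, against 31.4 and 28.8 FPKM with auranofin, with a log2 fold change of 0.02. The epithelial and stromal chemokine Cxcl14 overlapped between the groups as well, at 24.2 to 25.5 FPKM in all 4 libraries.

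All 5 receptors and atypical receptors that were tested had a log2 fold change below 0, and none passed. Cxcr4 had 16.1 and 14.6 FPKM against 13.8 and 13.5 FPKM, with no overlap and a log2 fold change of -0.15. Ackr3 had 12.04 and 10.9 FPKM against 10.1 and 10.6 FPKM, again with no overlap, and a log2 fold change of -0.13. Ccrl2, an atypical receptor that presents chemerin, had 10.1 and 8.54 FPKM against 9.15 and 7.52 FPKM, and its groups overlapped.

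**Figure D3:**
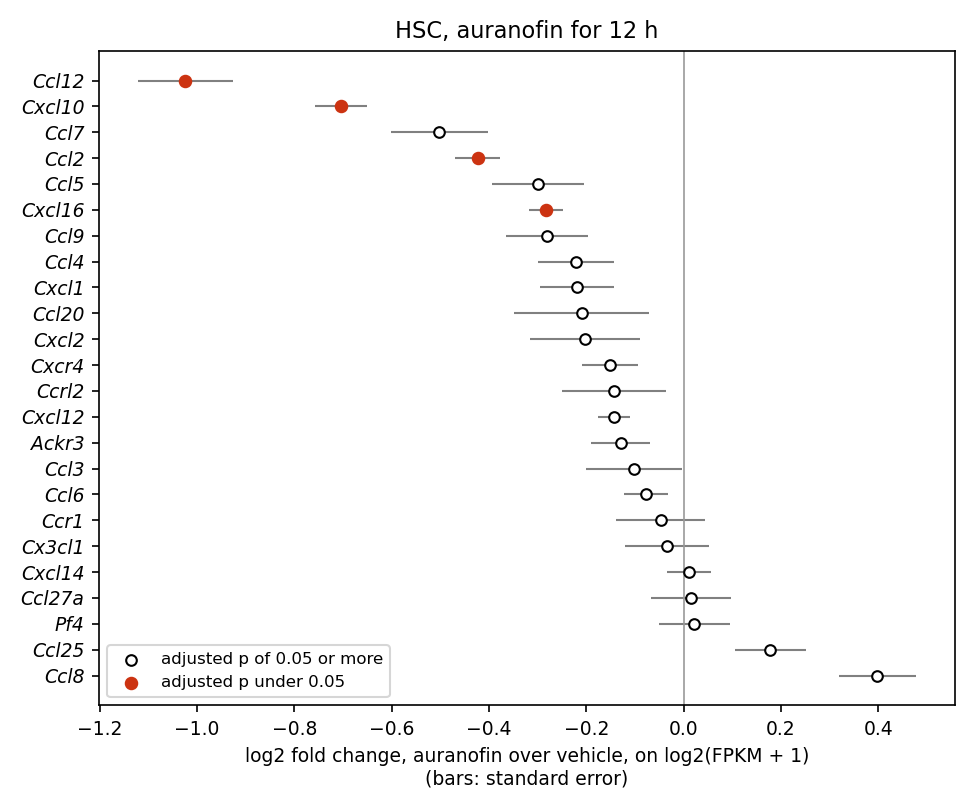
Log2 fold change of the tested members described here in HSCs, auranofin over vehicle on the log2(FPKM + 1) scale, as points with bars for the standard error (2 libraries per group). Filled points mark the 4 members at an adjusted p under 0.05 from limma, and most points lie to the left of 0.

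The plot of HSC fold changes shows the 4 called genes among the most negative values. Both auranofin libraries lay below both vehicle libraries in 14 members and above them in 2, namely Ccl8 and Ccl25. Such a separation was seen downward in 23.9% and upward in 26.2% of all genes tested. Summed over all ligands, vehicle 1 and 2 held 1731 and 1628 FPKM and auranofin 1 and 2 held 1476 and 1553 FPKM, or 0.401% and 0.378% against 0.336% and 0.358% of all FPKM. The sum over receptors of either kind was 56.0 and 54.1 FPKM against 47.5 and 49.03 FPKM.

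The HSC calls depended on the libraries and on the filter. Without vehicle 2, 9 members fell at an adjusted p under 0.05, with Ccl3, Ccl4, Ccl5 and Ccl7 among them, beside 1.53% of all genes. Without vehicle 1 the number was 6, beside 1.96%. Without auranofin 1 it was 3, beside 0.683%, and without auranofin 2 it was 4, beside 0.906%, as Ccl9 joined. Cxcl16 lost its call in both of these fits (Benjamini-Hochberg adjusted p = 0.0864 and 0.0585 from limma). With no filter on low values only Cxcl10 kept an adjusted p under 0.05, and with the variance fitted without a trend Ccl12 and Cxcl10 did. Calls over all genes also became fewer in these fits, at 49 genes with no filter and 129 without a trend. In the main fit, 132 genes fell and 151 rose.

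The levels of marker genes of other cells also differed between the HSC groups in part. The 15 macrophage markers summed to 9185 and 9328 FPKM with vehicle, against 8967 and 8993 FPKM with auranofin. Of the 14 that were tested, 11 had a log2 fold change below 0, while Mrc1 fell (log2 fold change -0.28) and Clec4f rose (0.27) at a Benjamini-Hochberg adjusted p of 0.0395 from limma for both. The 12 stellate and myofibroblast markers summed to 4651 and 4771 FPKM against 4104 and 4171 FPKM, and Acta2 fell from 956 and 965 to 743 and 737 FPKM (log2 fold change -0.38, Benjamini-Hochberg adjusted p = 0.0072 from limma). The 10 endothelial markers summed to 274 to 285 FPKM with vehicle and 274 to 290 FPKM with auranofin. Of these 10, Clec4g and Stab2, genes of liver sinusoids, fell (log2 fold changes -0.44 and -0.37, Benjamini-Hochberg adjusted p = 0.0130 and 0.0169 from limma), while 6 had a log2 fold change above 0, among them Cdh5 (0.14) and Kdr (0.17), which did not pass, and the median was 0.049. The 5 dendritic cell markers in the table, a list that includes the members Xcr1 and Ccr7, summed to 39.0 and 43.7 FPKM against 32.6 and 37.1 FPKM. Neutrophil markers summed to 17.7, 6.87 and 6.36 FPKM in vehicle 1, vehicle 2 and auranofin 1 and to 75.6 FPKM in auranofin 2. The 8 T and NK cell markers in the table summed to between 2.70 and 3.29 FPKM with Cd3d and Cd3e at or near 0, and the 6 hepatocyte markers to at most 1.84 FPKM. The part of these cells in the chemokine results was not tested.

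Of the 61 genes listed as acting downstream of chemokine receptors, 57 were tested in HSCs. By adjusted p 1 fell and 1 rose, a share near the 1.09% and 1.24% of all genes. A log2 fold change below 0 was found in 41, beside 47.8% of all genes, with a median of -0.04. Rgs1, which ends Gi signals of chemokine receptors, fell from 63.4 and 61.5 FPKM to 50.4 and 51.5 FPKM (log2 fold change -0.29, Benjamini-Hochberg adjusted p = 0.0228 from limma). Prkcb, a protein kinase C, rose from 14.5 and 16.2 FPKM to 19.9 and 20.6 FPKM (log2 fold change 0.38, Benjamini-Hochberg adjusted p = 0.0434 from limma). Without auranofin 1 or without auranofin 2, the number called in this list was 0. Of the 32 regulators of chemokine genes, which are Toll-like receptor, NF-kB, IRF, AP-1 and STAT components, 23 had a log2 fold change below 0 and the median was -0.09. None reached an adjusted p under 0.05 in limma, while 13 were lower and 2 higher at an unadjusted p under 0.05, beside 9.22% and 8.57% of all genes. Among them the NF-kB inhibitor gene Nfkbie had 7.51 and 7.18 FPKM with vehicle, against 5.79 and 5.89 FPKM with auranofin, a name chosen after its values were seen. Without vehicle 1 or without vehicle 2, 2 regulators were called.

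In BMDMs, 29 of the 52 members had a mean of at least 1 FPKM and were tested, and 23 were below it, with means of 0.70 and 1.33 FPKM on either side of the minimum. Ccr8 and Ackr4 were listed at 0 in all 4 libraries. Chemokine transcripts were a large part of the summed FPKM of these libraries. FPKM divides by transcript length, so such a share is not a share of fragments. Means over the 4 libraries were at least 100 FPKM for 15 members and at least 1000 FPKM for 7, against 2 and 1 members in HSCs, and the ligands made up 7.23% and 7.21% of all FPKM with vehicle.

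The 2 BMDM auranofin libraries were unlike each other, and no member passed the test. None of the 29 members reached an adjusted p under 0.05 or an unadjusted p under 0.05 in limma, beside 0.0108% and 0.531% of all 9232 genes. None passed 1.5-fold with an unadjusted p under 0.05 either, beside 0.152% of all genes. Between the vehicle libraries, no tested member differed at least 2-fold on the log2(FPKM + 1) scale, while 11 did so between auranofin 1 and 2. Over all genes the shares were 0.390% and 8.13%. Auranofin 2 differed at least 2-fold from neither vehicle library in any member, whereas auranofin 1 did in 9 and 10 members. The median difference from the vehicle mean over the 29 members was -0.60 in auranofin 1 and 0.08 in auranofin 2 on that scale. Over all genes these medians were 0.18 and 0.00. The log2 fold change over both libraries was below 0 in 18 of the 29 members, beside 33.9% of all genes. Each library is therefore described separately.

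**Figure D4:**
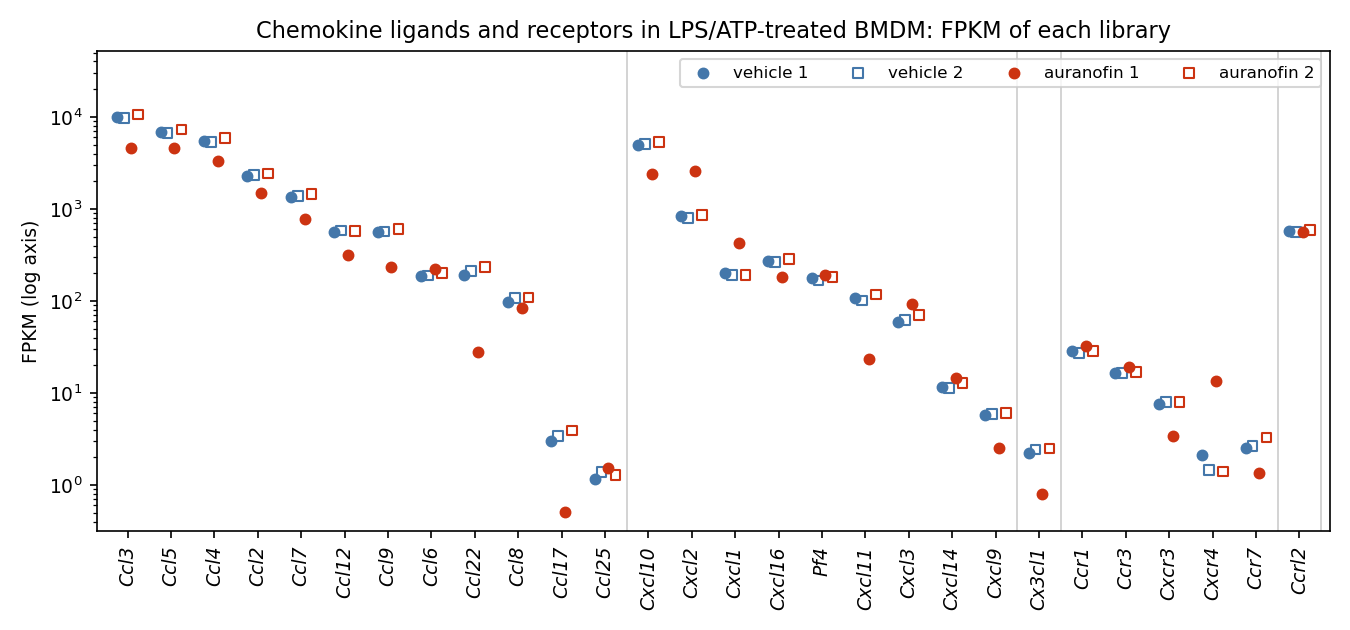
FPKM on a log axis of the tested members described here in each LPS/ATP-treated BMDM library, with vehicle in blue and auranofin for 1 h in red, ordered by class of gene (CC, CXC and other ligands, receptors, atypical receptor) and by level. Auranofin 1, the filled red circle, stands apart from the other 3 libraries in most ligands, below them for Ccl22 and above them for Cxcl2 and Cxcr4.

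In auranofin 1, 6 members were at least 2-fold lower than in each of the other 3 libraries, and 3 were at least 2-fold higher. The same rule was met downward by 2.04% and upward by 4.63% of all genes tested. The lower members were Ccl3, Ccl9, Ccl17, Ccl22, Cxcl10 and Cxcl11, and the higher ones were Cxcl1, Cxcl2 and Cxcr4.

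Among the CC ligands, Ccl22 and Ccl17 had the largest differences in auranofin 1 on the log2(FPKM + 1) scale. These ligands of Ccr4 lie together on chromosome 8. Ccl22 had 189.9 and 209.8 FPKM with vehicle, 27.6 FPKM in auranofin 1 and 235 FPKM in auranofin 2. Only auranofin 1 was low, at a level that the vehicle mean exceeded 7.25-fold. Over both libraries the log2 fold change was -1.29 (standard error 1.08). Ccl17 had 2.99 and 3.42 FPKM with vehicle, 0.515 FPKM in auranofin 1 and 3.92 FPKM in auranofin 2, and again only auranofin 1 was low. Cx3cl1, the membrane-bound ligand of Cx3cr1 between these genes, had 2.25 and 2.43 FPKM with vehicle, 0.799 FPKM in auranofin 1 and 2.49 FPKM in auranofin 2.

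The inflammatory ligands Ccl3, Ccl5 and Ccl4 were the highest members. Ccl3 had 9908 and 9673 FPKM with vehicle, 4585 FPKM in auranofin 1 and 10609 FPKM in auranofin 2. Ccl5 had 6802 and 6686 FPKM, then 4542 and 7290.5 FPKM, and Ccl4 had 5412 and 5299 FPKM, then 3345 and 5879.7 FPKM. In all 3 genes auranofin 1 was the lowest library and auranofin 2 the highest, so the groups overlapped. The log2 fold changes were -0.49, -0.23 and -0.27 for Ccl3, Ccl5 and Ccl4, with standard errors of 0.44, 0.27 and 0.31. Ccl9, a ligand of Ccr1, had 562 and 567 FPKM with vehicle, 231 FPKM in auranofin 1 and 607 FPKM in auranofin 2. Its neighbour Ccl6 differed, with 187 and 189 FPKM with vehicle, against 222 and 200.5 FPKM with auranofin, so that both auranofin libraries were higher by a log2 fold change of 0.16.

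The ligands of Ccr2 were lower in auranofin 1 alone. Ccl2 had 2285 and 2331 FPKM with vehicle, 1484 FPKM in auranofin 1 and 2426 FPKM in auranofin 2, a log2 fold change of -0.28 with a standard error of 0.27. Ccl12 had 567 and 583 FPKM, then 313 and 578 FPKM, a log2 fold change of -0.43 with a standard error of 0.33. Ccl7 had 1345 and 1381 FPKM, then 785 and 1457 FPKM. For each of the 3 genes auranofin 2 lay within 1.07-fold of the vehicle mean. Summed over the CC ligands, the libraries held 27358 and 27031 FPKM with vehicle, 15621 FPKM in auranofin 1 and 29397 FPKM in auranofin 2.

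The CXC ligands went in both directions by cluster. Cxcl10, a ligand of Cxcr3, had 4967 and 5037 FPKM with vehicle, 2389.7 FPKM in auranofin 1 and 5295 FPKM in auranofin 2. Cxcl11 had 107 and 101 FPKM, then 23.5 and 118 FPKM, with the vehicle mean 4.44-fold above auranofin 1. Cxcl9 had 5.74 and 5.92 FPKM, then 2.50 and 6.12 FPKM. In all 3 of these ligands only auranofin 1 was low, and Cxcr3 itself had 7.63 and 7.95 FPKM with vehicle, 3.398 FPKM in auranofin 1 and 7.97 FPKM in auranofin 2.

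The ligands of Cxcr2, in contrast, were higher in auranofin 1. Cxcl2 had 841 and 793 FPKM with vehicle, 2560.4 FPKM in auranofin 1 and 852 FPKM in auranofin 2. Both auranofin libraries lay above both vehicle libraries, but auranofin 2 by a margin of only 1.04-fold over the vehicle mean, against 3.13-fold in auranofin 1. The log2 fold change was 0.85 (standard error 0.57). Cxcl1 had 201 and 190.4 FPKM, then 431 and 190.2 FPKM, so that auranofin 2 was the lowest library and the groups overlapped. Cxcl3 had 59.2 and 62.0 FPKM, then 93.0 and 71.1 FPKM, with both auranofin libraries higher and a log2 fold change of 0.42. Cxcl2 and Cxcl3 share 5.75% and 6.31% of their 50-base stretches with each other, so the counting could have passed a small part of their reads between them. Cxcl16 had 273 and 266 FPKM with vehicle, 182 FPKM in auranofin 1 and 287 FPKM in auranofin 2, and Pf4 lay between 167 and 194 FPKM in all 4 libraries.

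Among the receptors and atypical receptors described here, Ccrl2 was the highest. Ccrl2 had 582 and 564 FPKM with vehicle, against 566 and 589 FPKM with auranofin. Its log2 fold change was 0.01, which turned to -0.057 after quantile normalization and to -0.080 after centring on the median. Both auranofin libraries were above both vehicle libraries in 7 members, beside 26.3% of all genes. Ccr1 was one of them, with 28.6 and 27.1 FPKM against 32.6 and 28.8 FPKM, and the eotaxin receptor Ccr3 another, with 16.5 and 16.6 FPKM against 19.1 and 17.1 FPKM. Cxcr4 had 2.11 and 1.46 FPKM with vehicle, 13.4 FPKM in auranofin 1 and 1.41 FPKM in auranofin 2. Auranofin 1 was 7.52-fold above the vehicle mean, on an estimated 845 fragments against 113 and 73, and auranofin 2 was the lowest library. Ccr7, the receptor that guides dendritic cells to lymph nodes, had 2.50 and 2.66 FPKM with vehicle, 1.36 FPKM in auranofin 1 and 3.28 FPKM in auranofin 2.

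**Figure D5:**
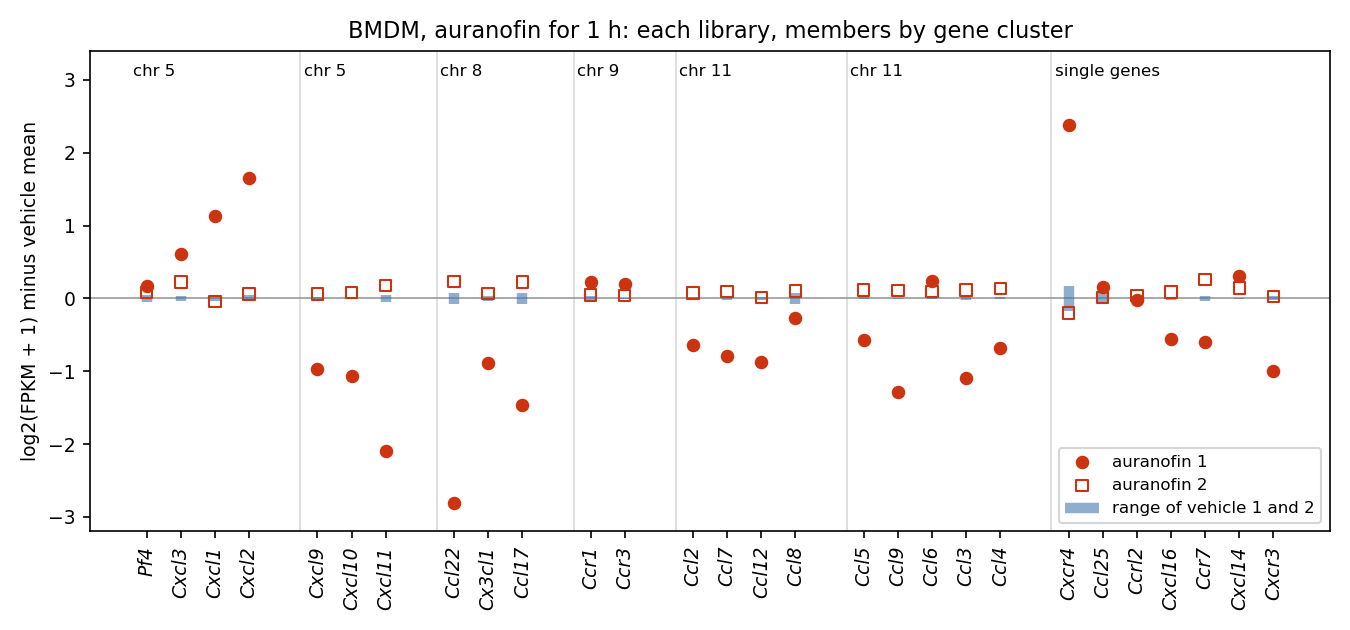
Difference of each BMDM auranofin library from the vehicle mean on the log2(FPKM + 1) scale for the tested members described here, grouped by gene cluster and chromosome, with the range of the vehicle libraries as bars. Auranofin 1 lies below 0 in every member of the Cxcl9 to Cxcl11, Ccl22 to Ccl17 and Ccl2 to Ccl8 clusters and above 0 in all 4 members of the Pf4 to Cxcl2 cluster, while auranofin 2 lies between -0.20 and 0.26 throughout.

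Ordered by position, the members of a cluster mostly went the same way in auranofin 1. All 3 tested members of the Cxcl9, Cxcl10 and Cxcl11 cluster, all 3 of the Ccl22, Cx3cl1 and Ccl17 cluster and all 4 of the Ccl2, Ccl7, Ccl12 and Ccl8 group were lower there. All 4 of the Pf4, Cxcl3, Cxcl1 and Cxcl2 group were higher, Pf4 by only 0.17 on the log2(FPKM + 1) scale. Over all 9232 genes tested, 2981 were lower in auranofin 1 than the vehicle mean, and the median difference was 0.18. Pf4 therefore lay at the level of all genes. In the cluster from Ccl5 to Ccl4, 4 were lower and Ccl6 was higher. The genes of a cluster share this 1 library, so they are not separate observations. In the printed windows, kB matches lay in Cxcl10, which was lower in auranofin 1, and in the higher ligands Cxcl1, Cxcl2 and Cxcl3. In the longer windows, the lower members Ccl3, Ccl12, Ccl17, Ccl22 and Cxcl9 held 0 matches, while Ccl9 held 1. The higher members Pf4, Ccl6 and Cxcr4 also held 0, while Ccr1 and Ccr3, higher by 0.22 and 0.20, held 1 each. No promoter was listed for the lower members Ccl2, Ccl4, Ccl5, Ccl7 and Cxcl11, so these were not searched. A relation between matches and direction was not tested.

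Leaving out 1 library decided the BMDM test. Without auranofin 2, 27 of the 29 members passed an adjusted p under 0.05 in limma, 18 lower and 9 higher, beside 65.2% of all genes tested. Without auranofin 1 the number was 0, beside 0.166%. The lone auranofin library is there assumed to vary like the vehicle libraries. The 15 macrophage markers summed to 9899 and 9780 FPKM with vehicle, 10790 FPKM in auranofin 1 and 9978 FPKM in auranofin 2. The 8 neutrophil markers summed to 204 and 210.1 FPKM with vehicle, against 275 and 276 FPKM with auranofin. Depth was about the same in both auranofin libraries, at 34900000 and 34500000 estimated fragments. The part of these values in the difference between the libraries was not tested.

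In the signalling list, 56 genes were tested in BMDMs, 31 had a log2 fold change below 0, beside 33.9% of all genes, and the median was -0.03. None passed an adjusted or an unadjusted p under 0.05 in limma. In auranofin 1, 1 of the 56 was at least 2-fold lower than in each other library, beside 2.04% of all genes. The regulators of chemokine genes were tested for all 32, of which 18 were below 0, and none passed either threshold. Their median difference from the vehicle mean was -0.28 in auranofin 1 and 0.05 in auranofin 2. Of the 32 regulators, 2 were at least 2-fold lower and 3 at least 2-fold higher in auranofin 1 than in each other library. Over all genes tested, the shares were 2.04% and 4.63%. The regulators described next were named after their values were seen. The interferon regulatory factor Irf8 had 195 and 228 FPKM with vehicle, 73.1 FPKM in auranofin 1 and 225 FPKM in auranofin 2. Jun, a subunit of AP-1, had 21.7 and 21.8 FPKM, then 70.3 and 23.2 FPKM, and the mRNA-destabilizing factor Zfp36l1 had 1.76 and 1.64 FPKM, then 10.2 and 1.66 FPKM. The regulators Ikbkb and Ikbkg went opposite ways. Ikbkb had 64.5 and 67.0 FPKM with vehicle, 29.8 FPKM in auranofin 1 and 64.8 FPKM in auranofin 2. Ikbkg had 4.38 and 4.47 FPKM, then 11.1 and 4.47 FPKM. Only auranofin 1 stood apart in all of these genes, as it did in the members that met the same 2-fold rule.

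Set side by side, 21 members were tested in both cell types. The log2 fold change was below 0 in both for 11 of them (52.4%, beside 18.4% of the 8963 genes tested in both), below 0 in HSCs and above 0 in BMDMs for 6, the reverse for 1, and above 0 in both for 3. Ccl12 had log2 fold changes of -1.02 in HSCs and -0.43 in BMDMs, Ccl2 had -0.42 and -0.28, and Cxcl10 had -0.70 and -0.49. For Cxcl2 the values were -0.20 and 0.85. The BMDM values rest on auranofin 1, and doses and times differ between the cell types.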

How the data were processed

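RNA from 8 libraries had been sequenced after a stranded mRNA library kit. The authors deposited a table for each cell type, which lists FPKM by gene and library on mm10. The submitters' processing notes name CASAVA, FastQC 0.11.7, Trimmomatic 0.38, HISAT2 2.1.0 and StringTie 1.3.4d, with no further settings. No other columns of per-sample values were left out (0).

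From the deposited FPKM, log2(FPKM + 1) was computed, genes averaging 1 FPKM or more in a table were kept, and limma 3.58.1 (lmFit, eBayes with trend, R 4.3.3) compared auranofin with vehicle in each table alone, with Benjamini-Hochberg adjustment over all genes kept. Calls used an adjusted p under 0.05, or 1.5-fold with an unadjusted p under 0.05. With 2 libraries per group, the smallest two-sided p of an exact permutation test is 0.333. FPKM are not counts, so no count model was used, and depth (27500000 to 39400000 fragments) was estimated from low values with GENCODE M21 transcript lengths. No 2 libraries held identical values.

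The members and lists were chosen with earlier results of these data known. Genes were named if they passed a call, were Ccl12, Ccl2 or Cxcl2, were among the 5 highest ligands or 4 highest receptors of a table, had one of the 3 largest or smallest fold changes, or differed at least 2-fold in BMDM auranofin 1 from each other library. Of the signalling and regulator lists, up to 4 called genes each way were named. Some members are counted in the totals but not reported here. Further members are given by value beside those of their family. RefSeq promoters (GRCm38.p6) were searched for motifs with Python 3.11.15. Alternatives were a pseudocount of 0.1, no filter, a mean of at least 5 FPKM, quantile normalization, centring, eBayes without trend, a replicate block, a 2-fold threshold and each library left out.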

Additional observations from a re-analysis of the deposited data

Results flagged for a closer look

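Cxcl2 moved in opposite directions in the 2 cell types. Its log2 fold change was -0.20 in HSCs, where both auranofin libraries lay below both vehicle libraries, and 0.85 in BMDMs, where both lay above. The difference was not tested, since the tables, doses and times differ, and neither value passed limma's test. In each cell type 1 vehicle or auranofin library lay close to the other group, namely vehicle 2 in HSCs (2.75 FPKM against 2.67 and 2.62) and auranofin 2 in BMDMs (852 FPKM against 841 and 793).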

How the results depend on the processing

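The 4 called HSC members became 1 with no filter on low values and 2 with eBayes without trend, and 3 to 9 with a library left out. The 2 past 1.5-fold and p became 1 at a mean of at least 5 FPKM, which removes Ccl12, 1 at 2-fold, and 2 to 3 with a library left out. The 2 called HSC signalling genes became 0 with no filter, 1 after quantile normalization, 0 without trend, and 0 to 3 with a library left out. For the 0 called HSC regulators the numbers were 3 at a mean of at least 5 FPKM, 2 after centring, and 0 to 2 with a library left out. In BMDMs, leaving out a library gave 0 to 27 members by adjusted p, 0 to 19 past 1.5-fold and p, 0 to 36 signalling genes and 0 to 26 regulators, each highest without auranofin 2. Without auranofin 2, most of all BMDM genes tested also passed by adjusted p, at the share given above. A high number in that fit is therefore not particular to these lists, and a difference from that share was not tested. With a replicate block, 5 HSC members were called in place of 4, and no call of a member was lost. Over all HSC genes, 132 fell and 151 rose by adjusted p in the main fit. The number of all genes called was 49 with no filter and 331 at a mean of at least 5 FPKM. It was 268 after quantile normalization, 312 after centring, 129 without trend and 282 with a replicate block. A difference of the lists from all genes was not tested. With a pseudocount of 0.1, 3 HSC members passed 1.5-fold and p in place of 2, namely 2 lower and 1 higher. Same-numbered deviations correlated at 0.11 in HSCs and -0.06 in BMDMs. With 2 libraries per group, and BMDM auranofin libraries unlike each other, these values cannot decide whether replicate numbers mark pairs. With a library left out, HSC log2 fold changes of the members named by the rules above turned sign for Ccl3 (-0.25 to 0.051) and Pf4 (-0.068 to 0.11). In BMDMs they turned for Ccl12 (-0.87 to 0.0079), Ccl17 (-1.47 to 0.23), Ccl2 (-0.64 to 0.072), Ccl22 (-2.81 to 0.23), Ccl3 (-1.09 to 0.12), Ccl4 (-0.68 to 0.13), Ccl5 (-0.57 to 0.11), Ccl9 (-1.28 to 0.10), Cxcl1 (-0.041 to 1.13), Cxcl10 (-1.07 to 0.082), Cxcl11 (-2.10 to 0.18), Cxcr4 (-0.20 to 2.38) and Ccrl2 (-0.016 to 0.041). Ccrl2 also turned to -0.057 after quantile normalization and -0.080 after centring. Members given only by value are not in these lists. Of them, Cxcl14 and Ccl27a in HSCs lay below the vehicle mean in auranofin 1 and above it in auranofin 2. In BMDMs this held for Ccl7, Ccl8, Cxcl9, Cxcl16, Cxcr3, Cx3cl1 and Ccr7. The causes were not tested, beyond the number of genes or libraries that an alternative itself sets. Depth limits Ccl8, Ccl12, Ccl20 and Ccl27a in HSCs, at 19 to 80 estimated fragments per library.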

Other observations

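Below the minimum of 1 FPKM, where no test was run, some members are given by value, and these names were chosen after their values were seen. Ccl22, a ligand of Ccr4, had 0.246 and 0.201 FPKM in HSCs with vehicle and 0.037 and 0.084 FPKM with auranofin, on an estimated 17 and 15 against 2 and 7 fragments. The scavenger receptor Ackr2 had 0.873 and 0.868 FPKM in HSCs with vehicle and 0.990 and 0.931 FPKM with auranofin. Other HSC members below the minimum, such as Cxcl9, Cxcl13, Ackr4 and Cxcr6, also had groups that did not overlap. Among all HSC genes tested, such a separation was seen downward in 23.9% and upward in 26.2%. In BMDMs, Ccr2 had 0.701 and 0.764 FPKM with vehicle, 0.333 FPKM in auranofin 1 and 0.768 FPKM in auranofin 2.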
